A study of Ostrinia furnacalis with 9 samples.

Results

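The pre-diapause head of the Asian corn borer, Ostrinia furnacalis, is represented in the series by 1 list of H3K9me3 peaks and 1 list of H3K27me3 peaks. With the single NC_ sequence left out, these lists held 7225 and 6539 peaks, together 13764 of the 29330 peaks deposited for the series. Each peak was classed as overlapping when at least 1 bp of it lay under a peak of the other mark, and as alone when it shared none. The series profiled larval heads by ChIP-seq with antibodies against the 2 marks in non-diapause, pre-diapause and diapause larvae, with 1 sample for each mark and stage, and 3 input samples that are not analysed here.

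The larvae came from a field collection and were kept as a stock on artificial diet at 27 °C under 16 h light to 8 h dark. Pre-diapause larvae had been moved, freshly moulted to the fourth instar, to 20 °C and 12 h light to 12 h dark, and stayed there for 20 days. Diapause larvae had at least 30 days of that regime. No separate regime is given for non-diapause larvae. The number of heads behind a library and any pooling of libraries are not given in the sources used here. A head holds brain, muscle, epidermis and other tissues, so 2 marks at 1 place need not sit in the same cells. Genes were not placed on these scaffolds, and the tissue label was therefore not checked against marker genes.

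H3K9me3, trimethylation of lysine 9 of histone H3, is known from constitutive heterochromatin, where it is bound by HP1 proteins and accompanies silenced repeats. H3K27me3, trimethylation of lysine 27, is laid down by Polycomb repressive complex 2 and is known from developmental genes that are kept off. In flies and mammals the 2 marks are usually described at different parts of the genome. How far the 2 lists coincide in the same heads is the comparison made here. With 1 library a side there is no replicate error and no test. Intervals in brackets are exact binomial 95% intervals, or order-statistic intervals for medians, and they cover counting error only and treat neighbouring peaks as independent. The depth behind the lists is unknown. A peak alone had no call of the other mark past the threshold of the peak caller, which does not show that the other mark was absent.

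Most peaks of each list lay on a peak of the other mark. An H3K27me3 peak was met by 4308 of the 7225 H3K9me3 peaks, or 59.6% (58.5–60.8), and an H3K9me3 peak by 4329 of the 6539 H3K27me3 peaks, or 66.2% (65.0–67.3). That left 2917 H3K9me3 peaks and 2210 H3K27me3 peaks alone. Merged across both lists, the peaks formed 9421 places, of which 45.6% carried both marks, 31.0% H3K9me3 alone and 23.5% H3K27me3 alone.

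By length, the shared part was smaller than by number of peaks. H3K9me3 peaks covered 5.23 Mb and H3K27me3 peaks 4.45 Mb, which was 1.40% and 1.19% of the scaffold length spanned by peaks of the series. The marks shared 2.75 Mb. This was 52.6% of the H3K9me3 length, 61.9% of the H3K27me3 length and 39.7% of the 6.93 Mb that carried either mark. The corresponding share of the length under either mark was 49.3% in the non-diapause lists and 27.3% in the diapause lists, so the pre-diapause value lay between them. No test of these differences was possible with 1 list each, and the lists differ in length.

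Where the marks overlapped, the 2 peaks were nearly the same interval. In 4246 places exactly 1 H3K9me3 peak met exactly 1 H3K27me3 peak. The midpoints of such a pair lay a median of 34.5 bp apart (quartiles 14 and 83.5), and 78.4% of pairs had midpoints within 100 bp. The starts differed by a median of 43 bp and the ends by 42 bp, against median widths of 572 bp for H3K9me3 and 559.5 bp for H3K27me3. In 3821 pairs, or 90.0%, each peak covered at least 50% of the other. The median length shared was 480 bp (quartiles 359 and 737).

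Over the whole lists, nesting ran in both directions about equally. Of the overlapping H3K9me3 peaks 27.6% (26.3–29.0) lay wholly inside an H3K27me3 peak, counting 1 pair with the same start and end, and 29.1% (27.7–30.4) held a whole H3K27me3 peak. The remaining 43.3% (41.8–44.8) ran past the other mark at 1 end and stopped short at the other. Within the 1-to-1 pairs the H3K9me3 peak was the wider in 2166, the H3K27me3 peak in 2062, and 18 were equal. The wider mark was H3K9me3 in 51.0% (49.5–52.5), an interval that takes in an even split. Among the 3000 strongest peaks of each list nesting was less even. There 26.3% (24.3–28.3) of overlapping H3K9me3 peaks lay inside an H3K27me3 peak, and 32.3% (30.3–34.5) of overlapping H3K27me3 peaks inside an H3K9me3 peak. At non-diapause the nesting was uneven, with 13.7% (12.4–15.0) of the overlapping H3K9me3 peaks inside an H3K27me3 peak and 41.6% (39.8–43.4) of the H3K27me3 peaks inside an H3K9me3 peak. At diapause the values were 26.3% (24.2–28.4) and 26.7% (24.7–28.9), closer to those at pre-diapause. Among the widest pairs the balance differed. Of the 167 pairs with a peak over 2000 bp, both peaks were that wide in 90, the H3K9me3 peak alone in 60 and the H3K27me3 peak alone in 17.

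**Figure D1:**
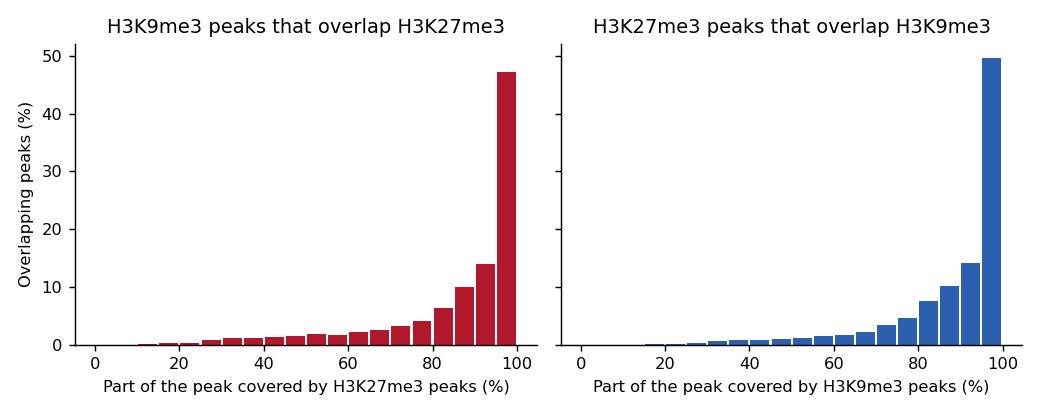
Histogram of the part of each overlapping peak that is covered by peaks of the other mark (x axis, in percent, in steps of 5), as a share of the overlapping peaks of that mark (y axis, in percent), for H3K9me3 on the left and H3K27me3 on the right, pre-diapause heads. Both pile up at the right edge: the median covered part was 94.1% for H3K9me3 and 94.9% for H3K27me3.

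Slight overlaps were rare. An overlapping H3K9me3 peak was covered by H3K27me3 over a median of 94.1% of its length (quartiles 82.3 and 100), and only 3 were covered over less than 10%. An overlapping H3K27me3 peak was covered over a median of 94.9% (quartiles 84.3 and 100), and 1 was covered over less than 10%. The histogram of the covered part shows this pile-up near full cover for both marks. The slightest 1-to-1 overlap, 9 bp, was on NW_021137026.1, between an H3K9me3 peak at 29048–29493 with a fold of 2.78 and an H3K27me3 peak at 28330–29056 with a fold of 2.56. Here and below, a fold is the authors' own enrichment of the immunoprecipitated library over background for that peak, and folds of the 2 lists are not on a shared scale. The nearest miss was on NW_021135517.1, where an H3K9me3 peak at 224481–225011, fold 2.83, began at the base after an H3K27me3 peak at 223424–224480, fold 2.05. The next was on NW_021131344.1, where 36 bp separated an H3K27me3 peak at 44592–45185, fold 2.14, from an H3K9me3 peak at 45222–45694, fold 2.40. All of these peaks at the border of the rule were among the lower folds of their lists, whose medians were 3.33 for H3K9me3 and 3.31 for H3K27me3.

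The 5 pairs that shared the most sequence each spanned several kilobases. The longest was on NW_021137791.1, where the H3K9me3 peak at 347265–353860 and the H3K27me3 peak at 347356–353898 shared 6505 bp, with folds of 3.31 and 3.06. On NW_021134071.1 an H3K9me3 peak at 255347–260781 and an H3K27me3 peak at 255344–260783 shared 5435 bp and differed by 3 and 2 bp at their ends. Their folds were 5.30 and 4.90, and the diapause lists had folds of 14.1 and 11.8 at this place. On NW_021137824.1 the marks shared 5234 bp from 251450 to 256683, the whole H3K9me3 peak, with folds of 4.08 and 3.78. NW_021136438.1, with an H3K9me3 peak at 23986–28587, shared 4499 bp at folds of 5.30 and 5.11. NW_021137396.1, with an H3K27me3 peak at 103776–108135 that lay wholly inside an H3K9me3 peak, shared 4360 bp at the low folds of 2.03 and 1.86. The long pairs were thus not the strongest of their lists by fold. By the deposited −log10 q some ranked high. The pairs on NW_021134071.1, with 99.3 and 108, and NW_021137824.1, with 19.0 and 21.1, were in the strongest 10% of both lists. So was the H3K9me3 peak on NW_021137396.1 in its list, with 19.7. The remaining values lay between 12.2 and 15.9. All 5 places had peaks of both marks at non-diapause, and all but NW_021137791.1, which had no diapause H3K9me3 peak, had both at diapause.

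One peak meeting several of the other mark was the exception. Of the overlapping H3K9me3 peaks 33 met 2 H3K27me3 peaks and 1 met 3, while 14 H3K27me3 peaks met 2 H3K9me3 peaks and 0 met 3. The H3K9me3 peak with 3 partners, on NW_021131398.1 at 46284–52306, was 6023 bp wide with a fold of 2.81, yet only 1043 bp of it carried H3K27me3. The next by width were NW_021132152.1 241336–245440, with 1760 of 4105 bp shared, and NW_021137744.1 2778–6860, with 2981 of 4083 bp shared. The H3K27me3 peaks with 2 partners were shorter, led by NW_021136956.1 200466–203702, with 2425 of 3237 bp shared, NW_021130658.1 232441–235350, with 1913 of 2910 bp, and NW_021136956.1 55809–58688, with 2350 of 2880 bp.

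Within the 1-to-1 pairs, a peak that ranked high for one mark tended to rank high for the other. Spearman's rho across the 4246 pairs was 0.83 for fold, 0.71 for width and 0.71 for −log10 q. Pairs are not independent replicates, and both values of a pair share the sequence, its mappability, the stage's heads and possibly the input.

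Overlap with the other mark went with the strength of a peak. Among the weakest 10% of H3K9me3 peaks by −log10 q, 24.5% (21.4–27.8) overlapped H3K27me3, and among the strongest 10%, with −log10 q of at least 18.4, 91.7% (89.4–93.6) did. For H3K27me3 the shares were 30.7% (27.2–34.4) and 99.7% (98.9–99.96). The strongest 653 H3K27me3 peaks thus held 2 that were alone, and the strongest 722 H3K9me3 peaks held 60. In the 10% just below, 40 of 654 H3K27me3 peaks and 126 of 723 H3K9me3 peaks were alone. By −log10 q, strong H3K9me3 peaks were thus alone more often than strong H3K27me3 peaks. By fold the marks did not differ in this way, with 8 of 722 H3K9me3 and 8 of 653 H3K27me3 peaks alone in the highest 10%, and 82 of 723 and 69 of 654 in the 10% below.

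**Figure D2:**
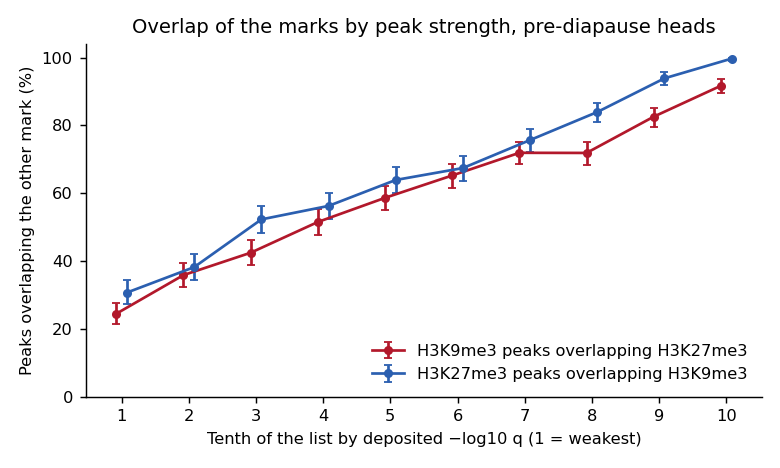
Share of peaks that overlap a peak of the other mark (y axis, in percent) in each 10% of a list ordered by the deposited −log10 q (x axis, weakest at 1), for H3K9me3 in red and H3K27me3 in blue, with exact binomial 95% intervals. Both shares climb along the lists, from 24.5 to 91.7% for H3K9me3 and from 30.7 to 99.7% for H3K27me3.

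Ordered by fold in place of −log10 q, the H3K9me3 list gave the same course, from 18.5% (15.8–21.6) overlapping in the lowest 10% to 98.9% (97.8–99.5) in the highest. The H3K27me3 list did not start at its lowest point. Its lowest 10% by fold overlapped H3K9me3 in 59.8% (55.9–63.6), the next in 45.6% (41.7–49.5), and the highest in 98.8% (97.6–99.5). The 391 overlapping peaks of that lowest 10% had a median width of 559 bp and a median −log10 q of 4.65. For 262 of the 263 that were alone the medians were 460 bp and 3.42.

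Peaks alone were weaker and narrower at the median. For H3K9me3 the median fold was 2.76 (2.73–2.79) alone and 3.86 (3.82–3.91) overlapping, and the median −log10 q was 4.64 and 8.17. For H3K27me3 the median fold was 2.90 (2.87–2.94) alone and 3.62 (3.57–3.66) overlapping, and the median −log10 q was 4.58 and 8.58. A −log10 q under 3 was found in 15.8% of H3K9me3 peaks alone against 3.69% of the overlapping, and in 17.7% against 3.77% for H3K27me3. Overlap and strength moved together in both lists, and the part of one in the other was not tested.

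The difference in width was small for H3K9me3 and clearer for H3K27me3. The median width was 484 bp (471–497) for H3K9me3 alone and 574 bp (563–591) overlapping, a difference of 90 bp. For H3K27me3 it was 417 bp (406–427) alone and 563 bp (551–577) overlapping, a difference of 146 bp. When at least 50% of a peak had to be covered for it to count as overlapping, the H3K9me3 difference was 26 bp and the H3K27me3 difference 115 bp. A wider peak also has more room to meet another by at least 1 bp. Of H3K9me3 peaks up to 400 bp wide 47.8% (45.6–50.04) overlapped, and the share was 74.4% (68.3–79.8) over 2000 bp. For H3K27me3 it was 49.8% (47.6–52.0) up to 400 bp, 76.9% (73.9–79.7) from 1000 to 2000 bp and 68.9% (61.2–75.8) over 2000 bp.

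Wide peaks were few in every class. Over 2000 bp there were 60 H3K9me3 peaks alone, or 2.06% (1.57–2.64) of that class, against 3.24% of the whole list. For H3K27me3 there were 52, or 2.35% (1.76–3.07), near the 2.55% of the whole list. The widest H3K9me3 peak alone was also the widest of its list, on NW_021132152.1 at 975574–983037, with 7464 bp and a fold of 3.47. It was followed by NW_021133039.1 674925–681484, with 6560 bp and 2.16, and NW_021130448.1 16127–21661, with 5535 bp and 3.28. None of the 3 was called for H3K9me3 at both other stages. The widest H3K27me3 peak alone, again the widest of its list, was on NW_021135154.1 at 1820193–1827069, with 6877 bp and a fold of 3.69. The next were both on NW_021131485.1, at 545150–551809 with 6660 bp and 2.98, and at 506862–512577 with 5716 bp and 3.06. These 3 had H3K27me3 peaks at non-diapause and at diapause too, and no H3K9me3 peak at any stage.

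Few peaks alone lay close to a peak of the other mark. Of the 2917 H3K9me3 peaks alone, 12 had an H3K27me3 peak closer than 500 bp and 62, or 2.13% (1.63–2.72), closer than 1000 bp. Of the 2210 H3K27me3 peaks alone, 12 and 46, or 2.08% (1.53–2.77), had an H3K9me3 peak that close. Overlapping peaks had a further peak of the other mark closer than 1000 bp about as rarely. The shares were 2.37% (1.93–2.87) for H3K9me3 and 2.73% (2.26–3.26) for H3K27me3, so closeness did not set the peaks alone apart. Neighbours of the same mark were closer: 8.06% (7.09–9.10) of H3K9me3 peaks alone and 9.82% (8.61–11.1) of H3K27me3 peaks alone had one closer than 1000 bp. None was closer than 500 bp. Successive peaks of the H3K9me3 list were never closer than 530 bp and those of the H3K27me3 list never closer than 601 bp. The part of the peak calling in that spacing was not tested.

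The median gap from an H3K9me3 peak alone to the nearest H3K27me3 peak was 21377.5 bp (19927–23034), with quartiles of 8421 and 45713 bp. From an H3K27me3 peak alone to the nearest H3K9me3 peak it was 22737 bp (21329–24390), with quartiles of 8905 and 50466 bp. Overlapping peaks give a measure of the usual spacing. From an overlapping H3K9me3 peak to the nearest further H3K27me3 peak the median was 21048.5 bp (20276–22012), an interval within that of the peaks alone. From an overlapping H3K27me3 peak to the nearest further H3K9me3 peak it was 17973.5 bp (17090–18719), shorter than for the peaks alone. Gaps depend on how many peaks are listed: among the 3000 strongest peaks of each list the medians for peaks alone were 42632 and 47574.5 bp.

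Peaks alone lay closer to peaks of their own mark. The nearest further H3K9me3 peak was a median of 13921 bp (12901–15213) from an H3K9me3 peak alone, and the nearest further H3K27me3 peak 13210 bp (12012–14590) from an H3K27me3 peak alone. For overlapping peaks these distances were 17672 bp (16852–18577) and 20750 bp (19800–21596). The H3K27me3 value for peaks alone takes in 146 peaks on NW_021135154.1, a scaffold described below. No value without that scaffold is given here. The nearest peak alone of the other mark was a median of 65869 bp from an H3K9me3 peak alone and 55256.5 bp from an H3K27me3 peak alone.

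**Figure D3:**
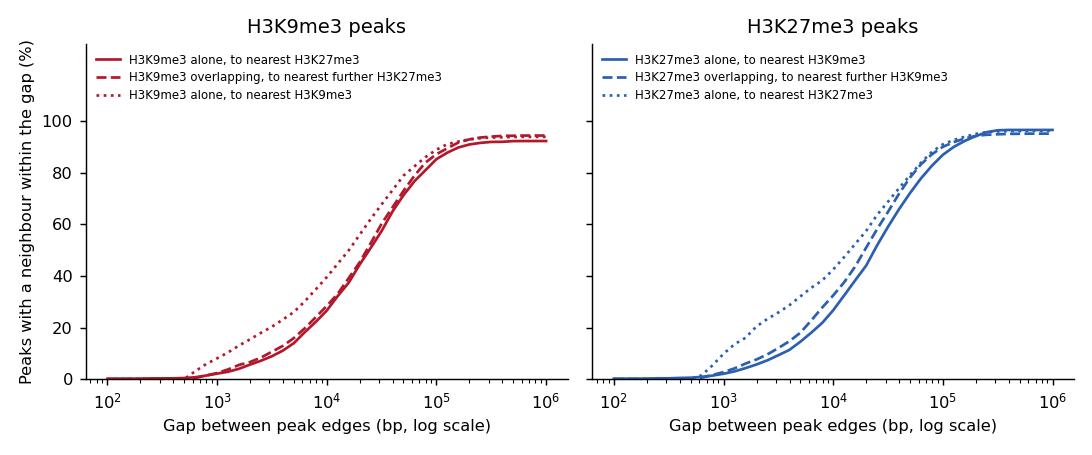
Share of peaks (y axis, in percent) that have a neighbour within a given gap between peak edges (x axis, bp, log scale), for H3K9me3 peaks on the left and H3K27me3 peaks on the right. Solid lines run from peaks alone to the other mark (medians 21377.5 and 22737 bp), dashed lines from overlapping peaks to the nearest further peak of the other mark, and dotted lines from peaks alone to their own mark, which are at 0 up to about 500 bp and lie above the other lines at 1000 bp, at 8.06 and 9.82%.

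The 3 H3K9me3 peaks alone farthest from H3K27me3 were on NW_021132745.1 at 536611–536933, with a gap of 519919 bp, NW_021130315.1 at 36498–37115, with 485862 bp, and NW_021137634.1 at 483739–484067, with 478191 bp. Their folds were 3.82, 1.70 and 3.02. For H3K27me3 they were NW_021131515.1 384335–384661, with 382868 bp, NW_021130561.1 33195–33505, with 348705 bp, and NW_021135596.1 357389–358659, with 333929 bp. Their folds were 2.998, 3.97 and 2.73. The first of these, far from any H3K9me3 peak at pre-diapause, had peaks of both marks at non-diapause and at diapause. No distance was defined for 223 H3K9me3 peaks and 74 H3K27me3 peaks alone, whose scaffolds held no peak of the other mark.

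Along a scaffold, places of one class followed each other more often than their share of all places. The place after an H3K27me3-only place was again H3K27me3-only in 39.4% (37.2–41.6), while that class made up 24.4% of all following places. For H3K9me3-only places the values were 38.0% (36.0–39.9) and 30.4%, and for places with both marks 50.04% (48.4–51.7) and 45.2%. An H3K27me3-only place followed an H3K9me3-only place in 18.1% (16.6–19.6). Without the scaffold NW_021135154.1, described next, H3K27me3-only places followed their own kind in 35.1% (32.9–37.4) against 23.2% of all following places.

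The longest runs were of H3K27me3. On NW_021135154.1, 85 H3K27me3-only places followed each other over 594 kb at 1514113–2107771, and 30 more over 441 kb at 1066377–1507088. NW_021131364.1 had a run of 19 over 84.2 kb at 41777–125952. The longest run of H3K9me3-only places had 9, over 216 kb at 141939–357955 of NW_021131674.1. Next came 8 within 18.3 kb at 50743–69041 of NW_021135248.1, and 8 over 451 kb at 32631–484067 of NW_021137634.1. Runs of 5 or more places numbered 43 for H3K27me3 only and 27 for H3K9me3 only, with NW_021135154.1 included.

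Few scaffolds were rich in a single mark. Of 1367 scaffolds with a pre-diapause peak, 1131 had both marks, 174 H3K9me3 only and 62 H3K27me3 only. The single-mark scaffolds held few peaks: 146 of the 174 and 54 of the 62 had 1 peak, and none had more than 6. They were also short. Their median length up to the last peak end was 3.81 kb for H3K9me3 only and 14.2 kb for H3K27me3 only, against 206 kb with both marks. Across scaffolds the counts of the 2 marks ran together, with a Spearman's rho of 0.87 over the 1367 scaffolds, whose lengths both counts share. On the 214 scaffolds with at least 20 peaks, H3K9me3 made up a median of 53.0% of the peaks (quartiles 48.4 and 56.7), and 176 of them lay between 40 and 60%.

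By a rule of at least 10 peaks of one mark and at most 1 of the other for every 10, 0 of 238 scaffolds were rich in H3K9me3 and 1 of 203 in H3K27me3. That scaffold, NW_021135906.1, had 10 H3K27me3 peaks and 1 H3K9me3 peak, and its strongest H3K27me3 peak was alone, at 25111–28006 with a fold of 3.61. It held 11 H3K27me3 peaks at non-diapause and 10 at diapause, with 1 and 0 of H3K9me3. Its peaks were weak, with a median −log10 q of 3.03, and with −log10 q of at least 3 the count of such scaffolds was 0. A looser ratio of 3 to 1, chosen after the counts were seen, gave 4 scaffolds for H3K27me3 and 2 for H3K9me3.

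**Figure D4:**
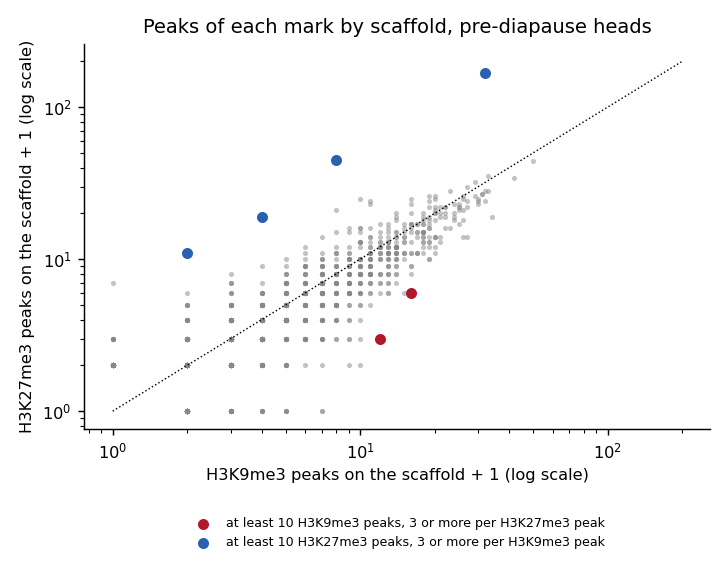
Number of H3K27me3 peaks (y axis) against H3K9me3 peaks (x axis) on each of 1367 scaffolds in pre-diapause heads, both as count plus 1 on a log scale, with a dotted line of equal counts. Coloured points are the 4 scaffolds with at least 10 H3K27me3 peaks and 3 or more for each H3K9me3 peak (blue) and the 2 with the reverse (red); the blue point at the top is NW_021135154.1, with 168 and 31 peaks.

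The largest of these was NW_021135154.1, with 168 H3K27me3 peaks, of which 146 were alone, and 31 H3K9me3 peaks, of which 9 were alone. It held 6.61% (5.61–7.72) of all H3K27me3 peaks alone and 0.868% of the scaffold length spanned. The 146 peaks alone there had a median fold of 2.76 and a median −log10 q of 3.35, while its 22 overlapping H3K27me3 peaks had 3.73 and 8.22. NW_021131364.1 had 44 H3K27me3 peaks and 7 H3K9me3 peaks, and NW_021133746.1 had 18 and 3. In both, H3K27me3 also outnumbered H3K9me3 at the other stages, with 24 against 7 and 9 against 4 at non-diapause and 35 against 9 and 16 against 3 at diapause. The same held on NW_021135154.1, with 109 against 24 at non-diapause and 151 against 15 at diapause. The H3K9me3-rich scaffolds were NW_021135248.1, with 15 H3K9me3 and 5 H3K27me3 peaks, and NW_021132495.1, with 11 and 2. On NW_021135248.1 the excess was not seen in the other lists, which had 4 and 3 peaks at non-diapause and 3 and 5 at diapause. On NW_021132495.1 they had 5 and 2, then 9 and 3.

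The span of a scaffold, taken up to its last peak end since full lengths were not used here, went with little difference in overlap for H3K9me3. On scaffolds spanning up to 50 kb, 55.2% (50.8–59.6) of H3K9me3 peaks and 74.1% (69.3–78.4) of H3K27me3 peaks overlapped the other mark. On those over 1000 kb the shares were 60.9% (58.4–63.4) and 62.3% (59.7–64.8). Without NW_021135154.1 the H3K27me3 share over 1000 kb was 68.7% (66.0–71.2), with an interval that overlaps that of the short spans. The spans between do not take in that scaffold. Their H3K27me3 shares were 70.1% (67.0–73.0) from 50 to 200 kb, 65.1% (62.9–67.2) from 200 to 500 kb and 67.0% (64.8–69.2) from 500 to 1000 kb. The intervals from 200 to 1000 kb lay below that of the short spans. In the first 1000 bp of a scaffold 209 H3K9me3 peaks began, of which 49.3% (42.3–56.3) overlapped, and 122 H3K27me3 peaks, of which 79.5% (71.3–86.3) overlapped.

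The other stages offer readings that did not enter the classes. Overlapping peaks were found again far more often than peaks alone. Of all pre-diapause H3K9me3 peaks 51.5% met a non-diapause H3K9me3 peak. Among the overlapping this was 76.6% (75.3–77.9), and among those alone 14.4% (13.2–15.8). At diapause the value for all was 36.3%, with 43.8% (42.4–45.3) for the overlapping and 25.1% (23.5–26.7) for those alone. Of all pre-diapause H3K27me3 peaks 51.3% met a non-diapause H3K27me3 peak, with 64.9% (63.4–66.3) of the overlapping and 24.6% (22.8–26.5) of those alone. At diapause 45.9% of all did, with 53.8% (52.3–55.3) and 30.5% (28.6–32.5).

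The difference between the classes varied with the strength of the peaks. The strongest 25% of the H3K9me3 list held 1528 overlapping peaks and 279 alone. Of these, 61.1% (58.6–63.6) of the overlapping and 54.5% (48.4–60.4) of those alone met a diapause H3K9me3 peak, intervals that overlap. At non-diapause the same peaks gave 92.7% (91.2–93.9) and 23.3% (18.5–28.7), so strong H3K9me3 peaks alone were mostly missing from the non-diapause list and more often in the diapause list. In the strongest 25% of the H3K27me3 list 69.5% (67.1–71.8) of the 1548 overlapping and 32.2% (22.6–43.1) of the 87 alone met a diapause H3K27me3 peak. In the weakest 25% of the H3K27me3 list the diapause shares were the other way round. They were 25.3% (21.9–28.9) of the overlapping and 31.2% (28.4–34.2) of those alone, though these intervals overlap. Without NW_021135154.1 the values were 25.2% (21.8–28.8) and 29.6% (26.6–32.7). The other same-mark comparisons in the weakest 25% were not reversed. H3K27me3 at non-diapause gave 27.4% of the overlapping and 21.6% of those alone. H3K9me3 gave 48.5% and 8.33% at non-diapause and 26.1% and 14.1% at diapause.

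Peaks alone mostly lacked the other mark at the other stages too, and more so for H3K9me3. Of all pre-diapause H3K9me3 peaks 40.2% met a non-diapause and 34.4% a diapause H3K27me3 peak. For those alone the shares were 3.19% (2.58–3.89) and 5.49% (4.69–6.37). Of all H3K27me3 peaks 56.4% met a non-diapause and 32.1% a diapause H3K9me3 peak, and of those alone 16.8% (15.3–18.5) and 9.41% (8.23–10.7). Taking both other stages, 7.82% (6.87–8.85) of H3K9me3 peaks alone had H3K27me3 at 1 or both, and 22.2% (20.5–24.0) of H3K27me3 peaks alone had H3K9me3. In the whole lists these shares were 48.1% for H3K9me3 peaks and 61.2% for H3K27me3 peaks. The marks thus differed in the same direction over all peaks, and how far this accounts for the difference among peaks alone was not tested. Among overlapping peaks the shares were 75.3% (74.0–76.6) and 81.2% (80.0–82.3).

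**Figure D5:**
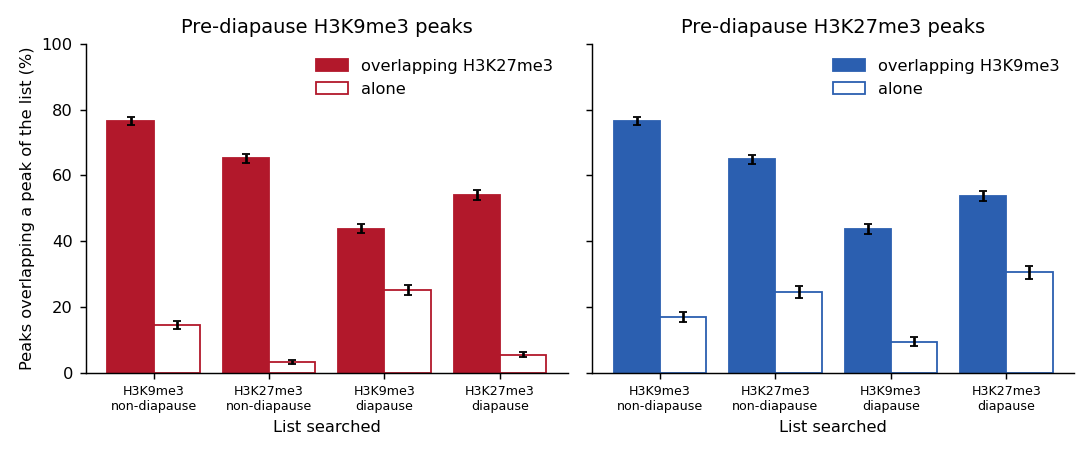
Share of pre-diapause peaks (y axis, in percent) that overlap a peak of each list from the other stages (x axis, mark and stage of the list searched), for H3K9me3 peaks on the left and H3K27me3 peaks on the right, with exact binomial 95% intervals. Filled bars are peaks overlapping the other mark at pre-diapause and open bars are peaks alone; filled bars are taller in all 8 comparisons, and the lowest open bar is H3K9me3 alone against non-diapause H3K27me3, at 3.19%.

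Many peaks alone belonged to the pre-diapause lists and to no other. No peak of either mark lay at the place at non-diapause or diapause for 64.7% (62.9–66.4) of H3K9me3 peaks alone and 50.8% (48.7–52.9) of H3K27me3 peaks alone, against 12.7% (11.7–13.7) and 12.8% (11.8–13.8) of the overlapping. In the whole lists these shares were 33.7% (32.6–34.8) for H3K9me3 and 25.6% (24.6–26.7) for H3K27me3. A single mark called alone at all 3 stages was uncommon. The same mark at both other stages and the other mark at neither was found for 142 H3K9me3 peaks alone, or 4.87% (4.12–5.71), and for 224 H3K27me3 peaks alone, or 10.1% (8.91–11.5). Over the whole lists that pattern at the other stages was found for 3.94% (3.51–4.42) of H3K9me3 peaks, near the value for those alone, and for 4.13% (3.66–4.64) of H3K27me3 peaks. The pre-diapause lists are the longest of the series, so fewer of their peaks can find a partner.

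The strongest single-mark peaks showed the same asymmetry. The highest fold of an H3K9me3 peak alone was 7.42, on NW_021137026.1 at 61938–62391, followed by 6.32 on NW_021131337.1 at 984907–985319 and 6.29 on NW_021133786.1 at 203725–204613. These had non-diapause H3K9me3 folds of 3.40, 3.52 and 3.40. The next were NW_021131151.1 1086890–1087249, with 6.04, and NW_021132402.1 106826–107175, with 5.87, which were called at no other stage. None of the 5 had an H3K27me3 peak at any stage.

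The highest fold of an H3K27me3 peak alone was 6.91, on NW_021133788.1 at 140316–140641. It had non-diapause folds of 4.60 for H3K9me3 and 4.95 for H3K27me3 and a diapause H3K27me3 fold of 5.05. The others were NW_021132396.1 11274–11666, with 5.49, NW_021130612.1 480682–481093, with 5.48, NW_021131305.1 368092–368443, with 5.36, and NW_021132152.1 234242–234565, with 5.31. All 5 had a non-diapause H3K9me3 peak, with folds from 4.14 to 4.60, so each of these strongest H3K27me3-only peaks at pre-diapause carried a called H3K9me3 peak at another stage. The 10 named peaks were between 324 and 889 bp wide. The widest, on NW_021133786.1, was above the upper quartile of width of the H3K9me3 list, 848 bp.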

How the data were processed

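ChIP-seq peak lists of larval heads were used as deposited. Per the submitters' processing notes the tools included MACS2, Bowtie2 and Picard, with no version or setting stated. The build, the use of the input and any pooling are not given in the sources used here. The 9 columns, which carry no header, were read in the broad-peak layout. The fold of a peak is the authors' ratio to background, and the −log10 p and −log10 q are those of the authors' peak caller. A whole-number score per peak was deposited too and not used. The smallest −log10 q in any list was 2.01. Read depth is unknown, so no interval covers it.

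Groups came from the sample titles. Overlap needed at least 1 bp, gaps were counted between peak edges on the same scaffold, and a scaffold's span was taken up to its last peak end over the 6 lists, 375 Mb in all. Positions are 1-based. The NC_ sequence was left out. Nothing was tested, and p-values were not computed. Strength classes were cut by −log10 q within a list.

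The named peaks are, by rule, the 5 pairs sharing the most bp, the 5 peaks alone of highest fold and the 3 widest for each mark, the 3 with most partners, the 3 farthest from the other mark, and the strongest peak on each scaffold rich in one mark. The peaks at the border of the overlap rule, the runs and the scaffolds at 3 to 1 were chosen after their values were seen. Members, rules and classes were chosen with earlier results of these data known. The gene table used holds 17154 genes and places 0 on a named sequence, so the planned gene lists were not analysed here. The overlap routine was tested on simulated data and checked against bedtools. Alternatives were a −log10 q of at least 3 or 5, the 3000 strongest peaks of each list, an overlap of at least 50%, the NC_ sequence kept, scaffold starts left out and, chosen after seeing the data, 1 scaffold left out. Python 3.11.15, numpy 2.4.6, pandas 2.3.3, scipy 1.17.1 and matplotlib 3.10.9 were used.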

Additional observations from a re-analysis of the deposited data

Results flagged for a closer look

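Some differences between the marks pointed one way at pre-diapause and the other way at another stage. None was tested, since each value comes from 1 list. H3K9me3 less H3K27me3 peaks came to 686 at pre-diapause and -308 at diapause. For peaks alone the difference was 707 at pre-diapause and -302 at diapause. The share of peaks overlapping the other mark, H3K9me3 less H3K27me3, was -6.58 percentage points at pre-diapause and 3.87 at diapause. The median width of peaks alone, H3K9me3 less H3K27me3, was 67 bp at pre-diapause and -70 bp at non-diapause.

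The NC_ sequence, left out above, carried 1 peak of each mark at pre-diapause, with a −log10 q of 122 for H3K9me3 and 124 for H3K27me3 and covered lengths of 14507 and 14515 bp. Its name is that of the mitochondrial genome, from background knowledge, and mitochondrial DNA is known to lack histones.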

How the results depend on the processing

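Of 88 values recomputed for 13 results, 55 stayed within the interval of the reported value (for scaffold counts, within 1.5 times), 33 moved out of it and 0 changed sign. For the shared length that interval, 39.67 to 39.74%, treats every base pair as independent and is far too narrow. All alternatives of the shared length therefore count among the moved, also those that shifted little. With −log10 q of at least 3, the overlapping shares were 61.0% for H3K9me3 and 67.5% for H3K27me3, the marks shared 41.2% of the marked length, and 0 scaffolds were rich in H3K27me3 only. With at least 5, these were 63.6, 68.0 and 44.6% and 0 scaffolds. The gaps from peaks alone were then 31280 bp for H3K9me3 and 29455.5 bp for H3K27me3, the H3K27me3 width difference was 173 bp, and overlapping H3K9me3 peaks exceeded those alone by 11.5 points in the share called at diapause, against 18.8 as reported. With the 3000 strongest peaks, which all had a −log10 q of at least 7.35, 64.8% of H3K9me3 peaks overlapped, 46.4% of the length was shared, 26.3% of overlapping H3K9me3 and 32.3% of H3K27me3 peaks were nested, the gaps were 42632 and 47574.5 bp, the H3K27me3 width difference was 182 bp, 0 scaffolds were rich in H3K27me3 only, and the difference called at diapause was 8.32 points. Fewer listed peaks lengthen gaps by construction, and the cause of the other moves was not tested. With an overlap of at least 50%, the shares were 55.6 and 63.6%, the nested H3K9me3 share 29.7%, the gaps 17848.5 and 20282 bp and the width differences 26 and 115 bp. The shared length was 39.8% with the NC_ sequence and 39.6% without scaffold starts. Without NW_021135154.1, 67.6% of H3K27me3 peaks overlapped, 40.4% of the length was shared and the H3K27me3 gap was 21050.5 bp. No paired analysis was possible because each mark and stage has 1 list. The unknown depth limits every statement on peaks alone.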
